A study of Mus musculus with 2 samples.

Results

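The genes described here are the subunits of the transcription factor NF-κB and its inhibitors, 10 genes chosen by symbol among the 20938 genes of each deposited table. The subunits were Nfkb1, Nfkb2, Rel, Rela and Relb, and the inhibitors were Nfkbia, Nfkbib, Nfkbie, Nfkbiz and Tnfaip3. Splenic Treg cells were profiled by RNA-seq on day 7 after diabetic mice had received an islet allograft without antibody treatment, with 1 library for Foxp3-Mettl14f/+ cKO mice (called cKO) and 1 for their littermates (called control). In the cKO mice, Cre under the control of Foxp3 acts on a floxed Mettl14 allele in the heterozygous state, on a C57BL/6J background with BALB/c islet donors, and the methods give the littermates as Mettl14f/f. The sample labels call the genotypes wild type and Foxp3 knockdown, and the names in the methods are used here. Whether the deletion was complete in the sequenced cells, age and the number of animals behind each library are not given in the sources used here. The cells were enriched with a magnetic kit, by depletion of cells other than CD4+ T cells and then positive selection for CD25. By flow cytometry, the paper reports that most of the cells sorted in this way were Treg cells. Sums of marker reads, given below, are not shares of cells.

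NF-κB subunits form dimers that are held in the cytoplasm by IκB proteins. Signals from antigen receptors, Toll-like receptors and TNF family receptors activate the IKK kinase complex, which marks IκB for degradation and lets the dimers enter the nucleus. Several inhibitor genes are themselves NF-κB targets and form negative feedback loops. In T cells, c-Rel, the product of Rel, is known for its part in the induction of Foxp3 during Treg development.

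Promoters are shown first, because several of these genes are feedback targets of NF-κB and carry letters of the κB motif that it binds. The RefSeq promoter table of GRCm38.p6 held 7 of the 10 genes, with 10 promoters, and held no entry for Nfkb1, Relb and Nfkbiz. One form of the motif, GGG followed by any 2 bases and then TTTCC, was searched on both strands in the 250 bases before each start. It was present in 464 of the 32851 promoters of the table, or 1.41%, and in 5 promoters of 4 of these genes, namely Nfkbia, Rel, Tnfaip3 and Nfkb2. Nfkbib, Nfkbie and Rela did not contain it in this window. The pattern was chosen among several forms of the motif after its matches in these genes had been seen, so the match is a description. The capitals mark it on the strand of the gene, and where the match lies on the other strand the reverse complement is seen. The Nfkbia sequence, chr12:55492648-55492897 on the minus strand, runs up to the start, and the Rel sequence, chr11:23770971-23771219 on the minus strand, ends next to it. The other windows reach into annotated exons and are kept to the match and the bases beside it, at chr10:19015403-19015432 on the minus strand for 1 of 2 starts of Tnfaip3 and at chr19:46304716-46304745 and chr19:46305695-46305724 on the plus strand for 2 of 3 starts of Nfkb2.
Nfkbia: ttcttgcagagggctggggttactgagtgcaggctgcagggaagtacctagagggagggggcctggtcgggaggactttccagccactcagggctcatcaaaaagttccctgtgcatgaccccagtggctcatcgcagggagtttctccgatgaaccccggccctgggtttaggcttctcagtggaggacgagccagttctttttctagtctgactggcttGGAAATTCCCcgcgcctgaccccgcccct
Rel: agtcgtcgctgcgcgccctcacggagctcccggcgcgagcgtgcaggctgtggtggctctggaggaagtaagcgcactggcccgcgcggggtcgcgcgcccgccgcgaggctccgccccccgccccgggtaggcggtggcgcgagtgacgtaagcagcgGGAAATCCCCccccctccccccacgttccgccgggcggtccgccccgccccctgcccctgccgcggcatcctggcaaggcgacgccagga
Tnfaip3: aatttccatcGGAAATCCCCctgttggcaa
Nfkb2, first start: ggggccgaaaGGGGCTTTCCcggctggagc
Nfkb2, second start: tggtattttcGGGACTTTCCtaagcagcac
The match began 29 bases before the start in Nfkbia, 91 in Rel, 12 in Tnfaip3, and 11 and 225 at the starts of Nfkb2. The labels of the Nfkb2 starts count only those with a match. Rel and Tnfaip3 carried the same letters, GGAAATCCCC, and both were past 1.5-fold in the comparison given next, as was Nfkbie, which held no match, whereas Nfkbia and Nfkb2 were not. Nfkbiz, also past 1.5-fold, had no promoter entry, and a link between match and change was not tested.

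Levels are the deposited values, read counts that the authors scaled by 1 factor per library, from which 20239325 whole reads were recovered for control and 18327535 for cKO. A change is a log2 ratio of cKO to control, after 1 was added to both levels. With 1 library per genotype, no spread between replicates is known for any difference. The 95% intervals, of the Clopper-Pearson type, cover counting error only. Mettl14, which encodes an m6A methyltransferase subunit, had 948 reads in control and 652 in cKO, a change of -0.31 (95% interval -0.45 to -0.16), or 0.046 when the libraries were scaled to equal T cell core reads. Foxp3, which the label names as knocked down, had 1547 and 1361 reads and a change of 0.05 (95% interval -0.06 to 0.15). RNA of other cell types differed between the libraries. The 15 B cell markers found summed to 28241 reads in control and 86034 in cKO, the 17 macrophage markers 29009 and 54457, and the 11 dendritic cell markers 5297 and 7302. The 17 T cell core genes found, such as Cd3e, Cd4 and Lck, had 67034 and 44670, whereas the 17 Treg signature genes had 17025 and 17424. The 15 granulocyte markers had 280833 and 328697 reads, more than the T cell core genes in each library, the 12 CD8 T and NK cell markers 9254 and 14556, and the 12 erythroid markers 36256 and 19628. Members of a list did not all move with its sum. Of the 12 CD8 T and NK cell markers, 8 were past 1.5-fold upward and 0 downward. Their changes included 2.25 for Cd8a and 2.46 for Cd8b1, and were lowest for Prf1 at 0.18. Within the granulocyte list Mpo, Prtn3 and Ctsg changed by -1.03, -1.17 and -1.38, and within the erythroid list, of which 7 of 12 were past 1.5-fold downward, Hbb-bs had 3 reads in control and 2626 in cKO. Marco, a macrophage marker, was listed at 0 in control, and no other marker of these lists was at 0. In bulk RNA, a different share of cells of a type and a different amount of RNA per cell cannot be told apart. Many of these other cells also express NF-κB genes, and their part in the changes described next was not tested.

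Each of the 10 genes had a higher level in cKO than in control, and Tnfaip3 and Nfkbiz were over 2-fold higher. On the deposited scale 4 of the 10, namely Tnfaip3, Nfkbiz, Rel and Nfkbie, were past a fold of 1.5 upward and 0 were past it downward. Of all genes whose mean level reached 1, 16659 in number, 17.2% were past it upward and 24.2% downward. A change above 0 was found in 46.7% of them, and in 10 of the 10 NF-κB genes. The downward share rests in large part on genes of low level. At a minimum mean level of 10, 2112 genes were past 1.5-fold upward and 2035 downward, against 2864 and 4028 at a minimum of 1. The 10 NF-κB genes also passed the minimum of 10. Shares and medians of all genes, here and beside the pathway lists, are those at a minimum of 1. The median change was 0.46 over the 10 genes and -0.04 over the 16659. The median was 0.65 for the inhibitors, of which 3 of 5 were past 1.5-fold, and 0.45 for the subunits, of which 1 of 5 was.

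**Figure D1:**
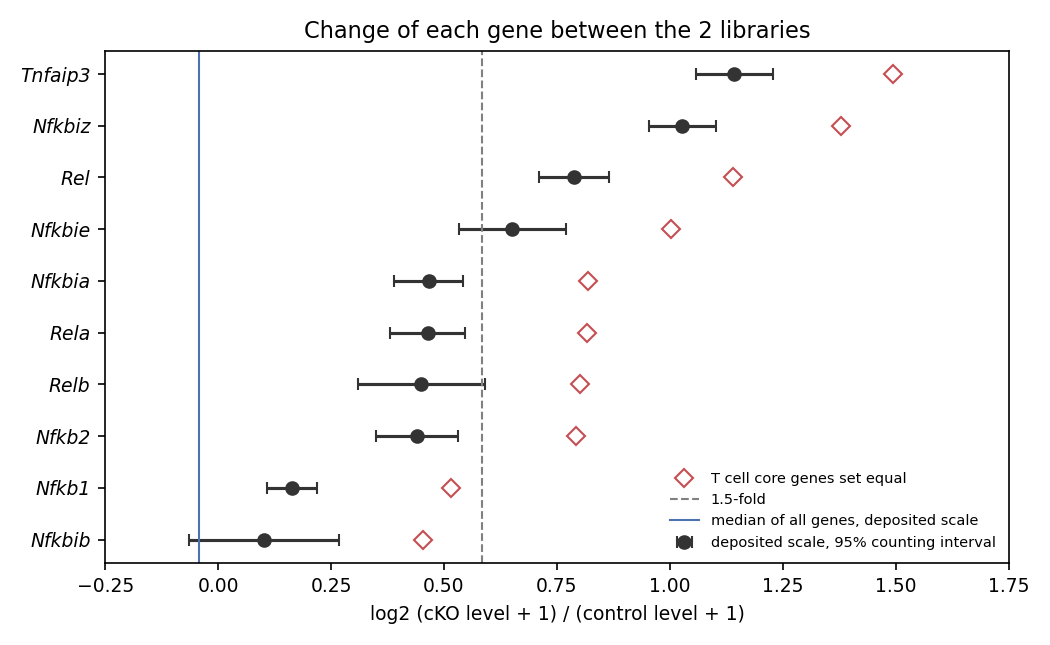
Change of each NF-κB gene on the log2 scale on the x axis, with filled points for the deposited scale, bars for the 95% counting-error interval and open diamonds for the scale that sets T cell core genes equal. Tnfaip3 and Nfkbiz lie farthest to the right, at 1.14 and 1.03 on the deposited scale, and Nfkb1 and Nfkbib lie closest to the median of all genes, at 0.16 and 0.10.

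The size of these changes depends on how the libraries are scaled. When the libraries were scaled to equal T cell core reads, the median of all genes moved from -0.04 to 0.31. On that scale 8 of the 10 genes were past 1.5-fold upward and 0 downward, against 30.8% and 18.8% of all genes. It does not set Treg genes equal, since the median on it was 0.51 for the Treg signature genes. For the CD8 T and NK cell markers the median on it was 1.04. When they were scaled to equal library totals, 3 of the 10 were past 1.5-fold, since Nfkbie was then at 0.56. On each of the 5 scalings run, the 10 changes were above 0. The reads were also compared by an exact binomial test (two-sided), which bears on these libraries and not on the genotypes. At an adjusted p under 0.1 together with the 1.5-fold threshold it called the same 4 genes higher and 0 lower, against 14.8% and 17.6% of 14863 genes. Replicates usually vary by more than counting error, so a spread was also assumed in the exact test of edgeR. At a coefficient of variation of 0.2, 2 of the 10 genes were called higher, Tnfaip3 with an adjusted p of 0.051 and Nfkbiz with 0.097. Of the same 14863 genes, 6.26% were called higher and 10% lower. At 0.4, 0 of the 10 were called, with an adjusted p of 1 each, against 1.54% and 3.83%.

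Positions are those of GENCODE vM21 on GRCm38, and all 10 genes are protein-coding. Among the inhibitors, Tnfaip3, on chromosome 10 from 19000910 to 19015657, showed the largest change. It encodes A20, a ubiquitin-editing enzyme that ends signaling upstream of IKK. Its level was 1682 in control, from 1739 reads, and 3714 in cKO, from 3266 reads. This was 2.21-fold higher, a log2 change of 1.14 (95% interval 1.06 to 1.23), and 91.0% of all genes had a lower change. Nfkbiz, on chromosome 16 from 55811375 to 55838899, encodes IκBζ, an atypical nuclear IκB protein that acts with p50 on a subset of target genes and can activate as well as inhibit. Its level was 2252 in control and 4591 in cKO, 2.04-fold higher, with a log2 change of 1.03 (95% interval 0.95 to 1.10). The intervals of Tnfaip3 and Nfkbiz overlapped, and both lay above those of the other 8 genes.

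The classical IκB genes, whose products hold the dimers in the cytoplasm, differed among themselves. Nfkbie, on chromosome 17 from 45555703 to 45563169, encodes IκBε, and its level was 982 in control and 1542 in cKO. It was 1.57-fold higher, a log2 change of 0.65, and its 95% interval of 0.53 to 0.77 reached below the threshold of 1.5-fold, as did its value of 0.56 at equal library totals. Nfkbia, on chromosome 12 from 55489410 to 55492647, encodes IκBα, the inhibitor that is rebuilt most quickly after activation. Its level was 2492 in control, from 2576 reads, and 3442 in cKO, from 3027 reads. That is 1.38-fold higher, a log2 change of 0.47 (95% interval 0.39 to 0.54), below the threshold. Nfkbib, on chromosome 7 from 28758251 to 28767512, encodes IκBβ, and its level was 608 in control and 653 in cKO. Its log2 change of 0.10 (95% interval -0.06 to 0.27) did not differ detectably from 0 at this depth. The exact binomial test, on TMM-scaled totals where the change was 0.078, gave an adjusted p of 0.42. Nfkbib shares exon bases with Sirt2 and Ccer2 on the opposite strand, and since the strand setting of the counting is not given in the sources used here, their reads cannot be told apart from those of Nfkbib. Sirt2 had 1114 and 1015 reads and a change of 0.10, and Ccer2 had 0 and 11 reads.

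Among the subunits, Rel was the one that was at least 1.5-fold higher. Rel, on chromosome 11 from 23736847 to 23770970, encodes c-Rel, the subunit most restricted to blood cells. Its level was 2145 in control, from 2217 reads, and 3703 in cKO, from 3256 reads, 1.73-fold higher. The log2 change was 0.79 (95% interval 0.71 to 0.87), and its interval overlapped that of Nfkbie and of no other of the 10 genes. Rela, on chromosome 19 from 5637483 to 5648130, encodes p65, the main activating subunit of the canonical pathway. Its level was 2094 in control and 2888 in cKO, a log2 change of 0.46 (95% interval 0.38 to 0.55). Nfkb1, on chromosome 3 from 135584655 to 135691547, encodes p105, which is processed to p50, the usual partner of p65. Nfkb1 had the highest level of the 10 genes before length is considered, 5282 in control and 5914 in cKO, and its log2 change was 0.16 (95% interval 0.11 to 0.22). Rel and Rela thus differed more between the libraries than Nfkb1 did, with intervals that did not overlap.

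The subunits of the noncanonical pathway had changes that could not be told apart at this depth. Nfkb2, on chromosome 19 from 46304320 to 46312385, encodes p100, which restrains RelB until it is processed to p52. Its level was 1773 in control and 2407 in cKO, a log2 change of 0.44 (95% interval 0.35 to 0.53). Relb, on chromosome 7 from 19606217 to 19629438, encodes the partner of p52. Its level was 757 in control and 1035 in cKO, a log2 change of 0.45 (95% interval 0.31 to 0.59). The changes of Nfkb2, Relb, Rela and Nfkbia lay between 0.44 and 0.47, with overlapping intervals. Nfkb2 shares exon bases with Psd on the opposite strand, which had 127 and 115 reads, and with a non-coding RNA. Of the 45 pairs among the 10 genes, 33 had intervals that did not overlap.

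Shares within the family were compared next, because they do not depend on the scaling between the libraries. Of the reads on the 5 subunits, 12458 in control and 14024 in cKO, Rel took 17.8% (exact 95% binomial interval 17.1 to 18.5) in control and 23.2% (22.5 to 23.9) in cKO. The share of Nfkb1 was 43.8% (43.0 to 44.7) and 37.1% (36.3 to 37.9). The shares of Nfkb2, Rela and Relb each differed by less than 1 percentage point, with overlapping intervals. Among the inhibitor reads, 8287 and 12260, the share of Tnfaip3 was 21.0% (20.1 to 21.9) in control and 26.6% (25.9 to 27.4) in cKO. The share of Nfkbiz was 28.1% and 32.9%, whereas that of Nfkbia was 31.1% and 24.7% and that of Nfkbib 7.59% and 4.68%. Per kilobase of exon, the shares among the subunits were 14.4% and 18.2% for Rel and 22.0% and 18.0% for Nfkb1. The ratio of inhibitor reads to subunit reads was 0.665 (95% interval 0.647 to 0.684) in control and 0.874 (0.853 to 0.896) in cKO, with intervals that did not overlap. Per kilobase of exon the same ratio was 1.42 in control and 1.61 in cKO, so its size and the side of 1 on which it lies rest on the lengths of the genes. Among the inhibitors, Nfkbiz had 2328 and 4037 reads and Tnfaip3 1739 and 3266. The classical IκB genes differed less, with 2576 and 3027 for Nfkbia, 1015 and 1356 for Nfkbie, and 629 and 574 for Nfkbib. The ratio is thus not one of the classical IκB genes alone, and the part of other cell types in it was not tested. Relative to the T cell core reads, the reads of the 10 genes came to 0.309 in control and 0.588 in cKO, while all reads came to 302 and 410.

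**Figure D2:**
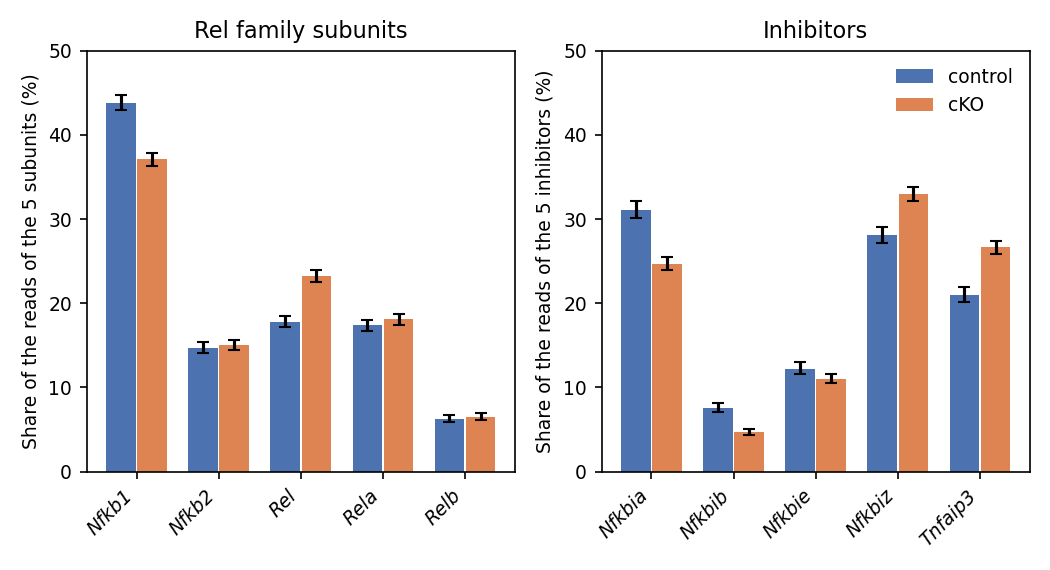
Share of each gene, in percent on the y axis, among the reads of the 5 subunits (left) and the 5 inhibitors (right), with blue bars for the control library, orange bars for the cKO library and error bars for exact 95% binomial intervals. Rel, Nfkbiz and Tnfaip3 took larger shares in cKO, Nfkb1 and Nfkbia smaller ones.

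Levels of different genes were compared per kilobase of annotated exon. In both libraries Nfkbia was the most abundant of the 10 genes, with a level per kilobase of 1548 in control and 2138 in cKO, and Rela was next with 682 and 940. In the cKO library the intervals of Rela and Nfkbiz, at 940 and 915, overlapped. On this length Relb was lowest, at 195 and 266, though its interval overlapped that of Nfkbib in cKO. Tnfaip3 held place 9 of 10 in control, at 233, and place 5 in cKO, at 514. In the cKO library Nfkb2, Tnfaip3, Nfkbie, Rel and Nfkb1, between 490 and 525, could not be ordered from one neighbour to the next. Rel and Nfkbib, at 287 and 281, could not be ordered in control, nor could Nfkbiz and Nfkb1, at 449 and 438. Most of these places rest on the length used. The annotated exons of all its transcripts span 12061 bases and its longest coding transcript 4117, and with the latter Nfkb1 held place 2 in both libraries. By the longest coding transcript, Rela held place 3 in control and 4 in cKO, Relb 8 and 9, Rel 10 and 8, Nfkbib 9 and 10, and Tnfaip3 7 and 5. Nfkbia held place 1 in both libraries by either length.

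**Figure D3:**
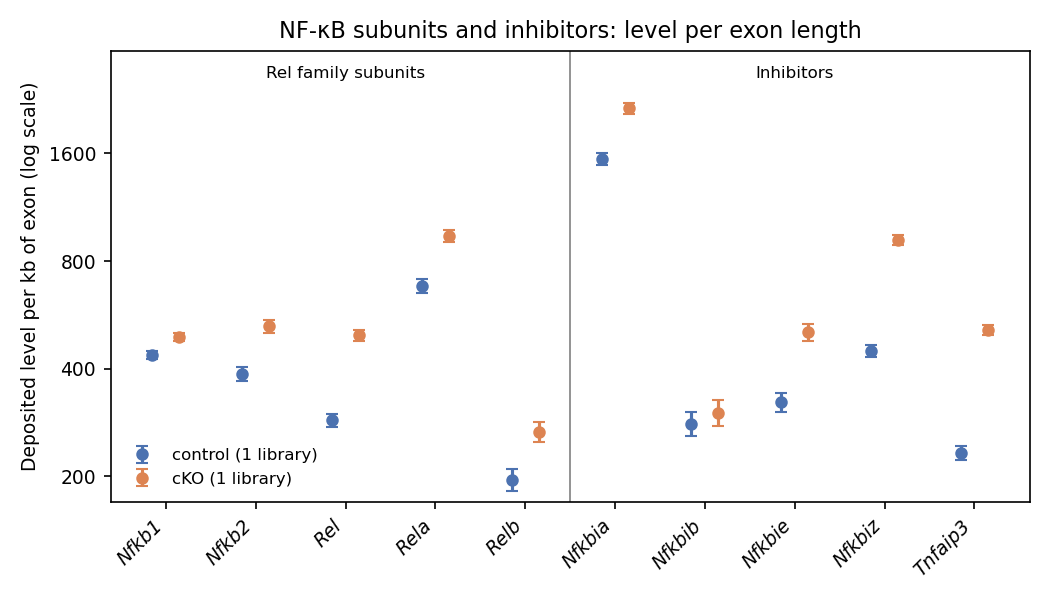
Deposited level per kilobase of annotated exon on a log y axis for the 5 subunits (left) and the 5 inhibitors (right), with blue points for the control library, orange points for the cKO library and bars for exact 95% Poisson intervals of counting error. Nfkbia is highest in both libraries, and the largest distance between the points is in Tnfaip3, from 233 to 514.

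Other genes of the pathway were compared in 7 lists written from general knowledge, with 117 genes that are not among the 10. Of the 116 genes past the filter, 40 were past 1.5-fold upward and 7 downward, with a median change of 0.41, against 17.2% upward, 24.2% downward and a median of -0.04 over all genes. Without the 8 genes that are also in a marker list, the numbers were 35 and 6 of 108. The marker lists include Treg signature and immediate early genes, and the 108 still hold genes tied to B cells, such as Tnfrsf13c. The part of other cell types in these numbers was not tested. Among 17 other inhibitors, 4 were at least 1.5-fold higher and 0 lower, against 17.2% and 24.2% of all genes, and 1 of the 4 rests on few reads. Nfkbid, which encodes the atypical IκB protein IκBNS, had 826 reads in control and 1389 in cKO, with a change of 0.98 (95% interval 0.86 to 1.11). Zc3h12a, which encodes the RNase Regnase-1, changed by 0.90, and Pdlim2 by 0.78. Tnip3, also past the threshold, had 8 and 11 reads, and its interval of -0.76 to 2.21 included 0. Bcl3, which encodes a further nuclear IκB protein, changed by 0.45, with an interval of 0.33 to 0.58 that overlapped those of Nfkb2 and Relb.

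Upstream, the IKK genes did not pass the threshold. Chuk, for IKKα, changed by 0.32 (95% interval 0.22 to 0.42) and Ikbkb, for IKKβ, by 0.37 (0.31 to 0.44), whereas Ikbkg, for the regulatory subunit NEMO, changed by -0.43 (-0.55 to -0.31). On the scale of equal T cell core reads, Chuk and Ikbkb were past 1.5-fold at 0.68 and 0.73, and Ikbkg was at -0.079. Of the 14 kinase genes, 3 were at least 1.5-fold higher and 0 lower, a share near the 17.2% higher among all genes. Map3k8, for the kinase Tpl2 that p105 holds inactive, had 497 and 1001 reads and a change of 1.24 (95% interval 1.09 to 1.40). Ripk2, the kinase downstream of NOD receptors, changed by 0.81, and Map3k14, for the noncanonical kinase NIK, by 0.74. Among 17 adaptors and ubiquitin ligases 3 were at least 1.5-fold higher and 0 lower, again near the 17.2% of all genes. Birc3, for the ubiquitin ligase cIAP2, changed by 1.01 from 1706 to 2921 reads. Irak2 and Irak3, both of the Toll-like receptor pathway, changed by 0.87 each. In the branch of the antigen receptors, 2 of 5 genes were at least 1.5-fold higher, too few to set against that share. Prkcb, for the protein kinase C of B cell receptor signaling, had 3575 and 9253 reads and a change of 1.60 (95% interval 1.55 to 1.66), and Malt1, the paracaspase that cleaves A20, changed by 0.69. Prkcq, which serves the T cell receptor, had 4678 and 3256 reads and a change of -0.29, or 0.063 on the scale of equal T cell core reads.

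Receptors, ligands and target genes spread more widely than the kinases and adaptors. Of 17 receptors, 8 were at least 1.5-fold higher and 1 lower, against 17.2% and 24.2% of all genes. Cd40 changed by 2.76, Tnfrsf13c, the BAFF receptor of B cells, by 2.16 from 536 to 2034 reads, Tlr9 by 1.73 and Tnfrsf11a, for RANK, by 0.97. The lower gene was Tnfrsf4, for the T cell costimulator OX40, with 438 and 233 reads and a change of -0.68. Of 13 ligands, 5 were at least 1.5-fold higher and 3 lower, with a median of -0.12 against -0.04 over all genes. Of those with a mean level of at least 10, Il1b had 1185 and 4199 reads and changed by 2.06 (95% interval 1.96 to 2.15), followed by Il18 at 1.76, Lta at 1.12 and Tnfsf13b, for BAFF, at 0.65. Tnfsf11, for RANKL, changed by -0.79 from 92 to 45 reads, and Il33 had 22 reads in control and was listed at 0 in cKO. The remaining ligands past the threshold were low, Il1a with 14 reads in cKO and listed at 0 in control, and Tnfsf4 with 11 and 5 reads. Tnf, the founding cytokine of the family, had 496 and 383 reads and a change of -0.14.

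Csf2 was at 0 in both libraries, and of the 33 known target genes past the filter, 15 were at least 1.5-fold higher and 3 lower, with a median of 0.58, against 17.2%, 24.2% and -0.04 over all genes. Cxcl2, a neutrophil chemokine, had 23 and 447 reads and a change of 4.45 (95% interval 3.91 to 5.19), and Ptgs2, for cyclooxygenase, had 41 and 565 reads and a change of 3.98. Vcam1, an adhesion molecule that is also in the list of macrophage markers, changed by 3.31. Il12b was listed at 0 in control with 25 reads in cKO, and Il6 had 26 reads in control and was listed at 0 in cKO. Cxcl10, an interferon-induced chemokine, had 61 and 24 reads and a change of -1.08, and Cxcl1 had 4 reads in control and was listed at 0 in cKO. The medians of the ligands and targets were the same with genes under 3 reads set at that floor. For comparison, 19 of 24 immediate early genes, whose transcription starts soon after stimulation, were at least 1.5-fold higher with a median of 0.81, 15 of 15 B cell markers with a median of 2.34 and 17 of 17 macrophage markers with a median of 2.30. The median was 0.69 for CD8 T and NK cell markers, 0.46 for granulocyte markers, 0.35 for dendritic cell markers and 0.16 for Treg signature genes, and it was -0.39 for T cell core genes and -1.15 for erythroid markers. The part of these cells in the changes of the subunits and inhibitors was not tested. Nor was the part of a response to stimulation that they might share with the immediate early genes.

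**Figure D4:**
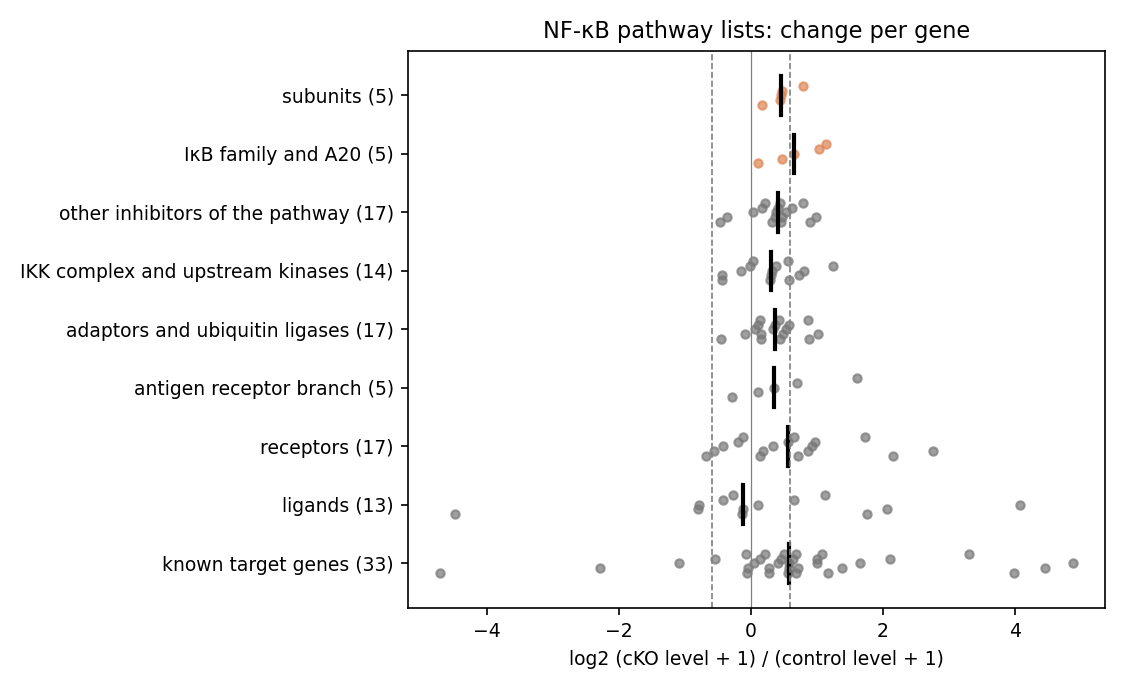
Log2 change of each gene past the filter on the x axis, by pathway list on the y axis with the number of genes in parentheses, where short black lines are medians and dashed lines mark 1.5-fold. The subunits and inhibitors (orange), other inhibitors, kinases and adaptors lie between -0.47 and 1.24, whereas ligands and targets spread more widely. Genes listed at 0 in 1 library are drawn with the pseudocount of 1, and their position is no fold.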

How the data were processed

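RNA-seq libraries of splenic Treg cells, 1 per genotype, were analysed as deposited. The authors aligned reads to mm10 with TopHat according to the methods, whereas the submitters' processing notes name bcl2fastq 2.0, STAR, StringTie and DESeq2 without a role; annotation and strand setting are not given in the sources used here. The deposited values are a signal, namely scaled read counts: 100% were whole multiples of the library's smallest value, within 0.001.

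Changes were computed with a pseudocount of 1 for genes whose mean level reached 1, at the methods' fold threshold of 1.5. On this scale the changes of low genes are understated. The methods' threshold of 0.1 was read as an adjusted p. The exact binomial test took genes that had 10 or more reads over both libraries, TMM-scaled totals and Benjamini-Hochberg adjustment, and called 2197 genes higher and 2617 lower; edgeR's exact test used assumed coefficients of variation. The exact binomial test and the intervals were checked on simulated reads with counting error only, and edgeR's exact test was not checked in this way. The methods mention no molecular identifiers, and several reads may be copies of 1 molecule. Intervals and the floor of 3 reads thus cover counting error only. Genes were placed by symbol on GENCODE vM21 (GRCm38, the build of mm10).

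The genes described in full are the 10 NF-κB genes. Of the other lists, up to 4 genes in each direction with a mean level of at least 10 are named, by size of change, with Mettl14, Foxp3, Chuk, Ikbkb, Ikbkg, Nfkbid and Bcl3. Prkcq, Tnf, Il1a, Tnfsf4, Cxcl1, Csf2, Mpo, Prtn3, Ctsg, Hbb-bs, Marco, Cd8a, Cd8b1, Prf1, Sirt2, Ccer2 and Psd were named after their values were seen. One motif form was kept of several tried. The members and lists were chosen with earlier results of these data known. Genes alike in pattern were not sought, since the libraries give 1 ratio per gene. Alternatives were other pseudocounts, filters, scalings, thresholds and tests. Python 3.11.15, numpy 2.4.6, scipy 1.17.1, pandas 2.3.3, matplotlib 3.10.9, R 4.3.3 and edgeR 4.0.16 were used.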

Additional observations from a re-analysis of the deposited data

How the results depend on the processing

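Under other pseudocounts (0.1 and 5), no filter, a minimum mean of 10 and the TMM or median-of-ratios scaling, 4 of the 10 NF-κB genes were at least 1.5-fold higher and the changes stayed within their counting intervals. Scaling to library totals left 3 higher, without Nfkbie at 0.56, moved their median to 0.37 and moved 6 of the 10 changes outside their intervals. At equal T cell core reads, 8 were higher, their median was 0.82, and 5135 genes were higher among all genes. A fold of 2 left 2 of the 10 and 1722 genes higher. The minimum mean of 10 left 2112 genes higher and 2035 lower, and the exact binomial test left 2617 lower. With edgeR's exact test, an assumed coefficient of 0.2 gave 2 of the 10 and 931 genes higher and 1488 lower, and 0.4 gave 0 of the 10 and 229 genes higher and 569 lower. In each of these settings 0 of the 10 were at least 1.5-fold lower. The length of the longest coding transcript, an alternative chosen after seeing the data, moved the place of 7 of the 10 genes in control and 6 in cKO. No paired analysis was possible because control and cKO hold a single library apiece.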
